A study of Mus musculus with 8 samples.

Results

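RNA levels of 9 genes of the caspase, inflammasome and necroptosis pathways were compared in reperfused mouse livers with and without hepatocyte-specific METTL3 knockdown. The genes were Casp1, Casp4, Casp8, Nlrp3, Pycard, Gsdmd, Ripk1, Ripk3 and Mlkl, taken by symbol from the 54532 genes of the deposited table, and each matched 1 row. METTL3-HKD mice (n = 4) carried METTL3 flox/- and an albumin-driven iCre, so recombination was aimed at hepatocytes, and heterozygous mice were used because mice with a full hepatocyte knockout died young. Whether the allele written as - was deleted or wild type was not given. METTL3-Flox controls (n = 4) were METTL3 flox/flox, and whether they carried the Cre was not stated. The groups thus differed in their METTL3 alleles and possibly in the Cre, and these cannot be told apart. The age of the sequenced mice was not given. All 8 livers underwent partial warm ischemia for 1 h and were taken 6 h after the clamp was released. No sham liver is among the samples, so every comparison below is between injured livers.

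These genes act at the point where a stressed cell turns to one of several forms of death. Caspase-8 starts apoptosis below the death receptors, and it also cleaves the RIP kinases and so holds back necroptosis. NLRP3 is a cytosolic danger sensor that assembles with the adaptor ASC, the product of Pycard, to activate caspase-1, which matures IL-1β and cuts gasdermin D. Mouse caspase-4, formerly called caspase-11, responds to bacterial lipopolysaccharide inside the cell and cuts the same gasdermin, whose freed part forms pores in the plasma membrane. In necroptosis, RIPK1 and RIPK3 pass the signal to MLKL, which breaks the membrane. In the liver, myeloid cells are the classical site of the NLRP3 inflammasome, whereas hepatocytes make up most of the tissue RNA.

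Levels are given in FPKM (fragment counts corrected for gene length and library size), listed in the order of replicate numbers 1 to 4, and the libraries held 15861245 to 18434488 reads on genes. The targeted gene Mettl3 ranged from 1.17 to 1.56 FPKM with the knockdown and from 1.16 to 1.84 FPKM in controls (log2 fold change −0.16, limma adjusted p = 0.556). Its whole-gene level thus did not check the genotype labels. Only exon 4 was floxed, and gene FPKM does not show single exons. The paper reports reduced METTL3 in METTL3-HKD liver, but not whether this was measured in the sequenced livers. Of the 5076 exon bases of Mettl3, 933 are shared with Tox4 on the opposite strand. Marker lists separated the groups more clearly. Summed neutrophil markers reached 331 to 1624 FPKM with the knockdown against 14.1 to 47.2 FPKM in controls, with 7 of 10 tested markers higher. Of the other neutrophil markers, Elane (0.354 to 1.31 against 0.694 to 2.15 FPKM), Ngp and Camp did not pass, and Mpo and Ltf were below the minimum level, with Mpo at 0.0361 FPKM at most. Summed Kupffer cell markers were lower, at 98.5 to 149 against 204 to 413 FPKM, with 6 of 7 past the threshold. Marco did not pass, and the groups overlapped for Cd5l. C6 gave 68.1 to 75.6 FPKM of the METTL3-Flox sums. In METTL3-HKD livers 1 to 4 it had 14.2, 16.3, 51.8 and 37.3 FPKM, while Clec4f had 30.4, 36.7, 17.8 and 15.5 FPKM. Monocyte and macrophage markers summed to 100.1 to 243 against 69.5 to 102 FPKM, with 2 of 8 higher (Ccr2 and Itgam). Lyz2, the largest part of these sums, had 71.9 to 190 against 33.6 to 60.1 FPKM and did not pass (limma adjusted p = 0.0542). The log2 fold change was above 0 for 6 of the 8, but −0.68 for Adgre1 and −0.58 for Csf1r, neither past the threshold. For hepatocyte markers, which checked the tissue label, the sums were 22430 to 32931 against 29406 to 33671 FPKM, with 1 of 8 lower (Hnf4a). The log2 fold change was below 0 for all 8, with a median of −0.42, though 7 did not pass. Cholangiocyte markers gave 4 of 5 higher, stellate cell markers 1 higher and 1 lower of 6, and sinusoidal endothelial markers 1 lower of 6, while 0 of 4 tested lymphocyte markers and 0 of 1 tested pancreas marker passed. Skeletal muscle markers summed to 53.6 and 93.1 FPKM in METTL3-HKD livers 1 and 3 and to at most 0.0428 FPKM in each of the other livers. The higher stellate marker, Des, which muscle also expresses, had 7.75 and 8.05 FPKM in those livers and 2.18 and 2.41 FPKM in METTL3-HKD livers 2 and 4. In whole liver, fewer cells of a type and less RNA per cell cannot be told apart. The limma p-values weigh a group difference against the spread between these livers.

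Of the 9 genes, Nlrp3 and Casp8 rose and Gsdmd fell in METTL3-HKD livers, and the other 6 did not pass the threshold. A gene passed with an adjusted p under 0.05 in limma's moderated test on log2(FPKM + 0.1), with Benjamini-Hochberg adjustment over the 16645 genes whose mean reached 0.1 FPKM. All 9 genes met that minimum. The 2 higher genes compare with 9.05% of all tested genes that were higher, and the 1 lower gene with 6.63% that were lower (15.7% in either direction), and counts this small among 9 genes do not set them apart from other genes. At an unadjusted p under 0.05 there were 4 of the 9, against 31.9% of all tested genes. The groups were apart for these same 3 genes, against 22.6% of all tested genes (12.7% higher and 9.95% lower). The median log2 fold change of the 9 genes was 0.21, beside −0.00 over all tested genes. Nlrp3 alone also passed a log2 fold change of 1, as 4.70% of all tested genes did upward and 1.52% downward.

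**Figure D1:**
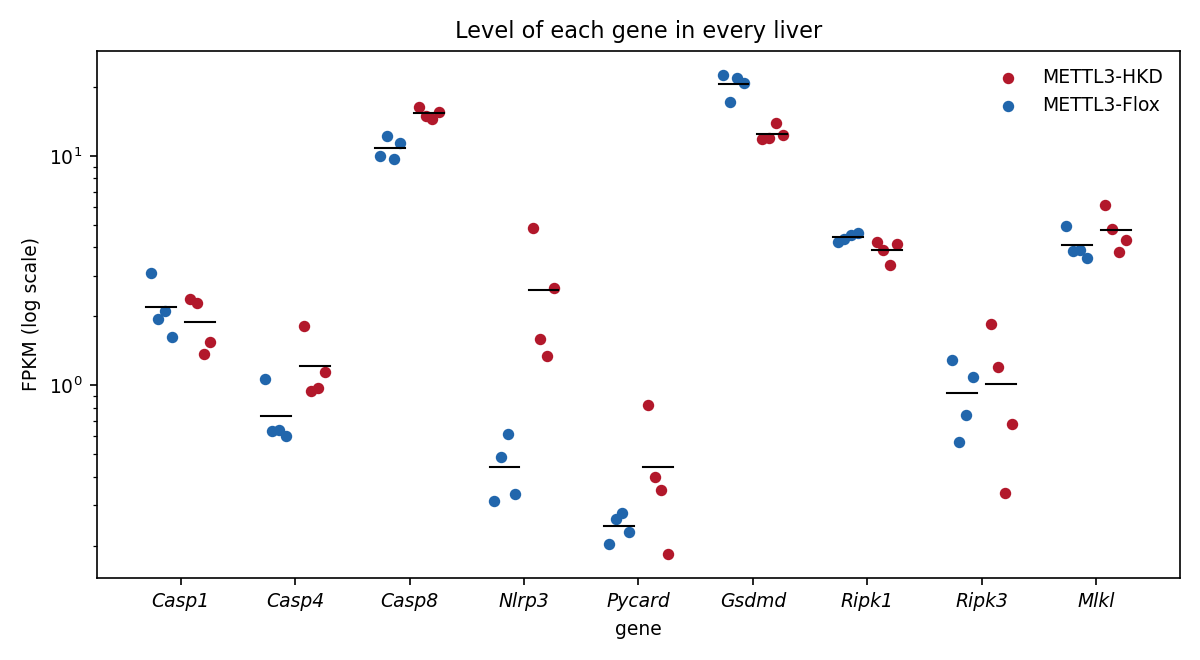
FPKM on a log scale for each of the 9 genes, with 1 point per liver (red, METTL3-HKD; blue, METTL3-Flox; n = 4 each) and a black line at the group mean. The groups are apart for Nlrp3, Casp8 and Gsdmd and overlap for the other 6 genes.

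Nlrp3, the sensor, had the largest fold change of the 9 genes. Its level was 4.85, 1.59, 1.34 and 2.65 FPKM with the knockdown and 0.312, 0.488, 0.616 and 0.337 FPKM in controls. Even the lowest METTL3-HKD liver, number 3, lay above the highest METTL3-Flox liver, also number 3, while the METTL3-HKD livers differed among themselves 3.63-fold. The mean was 2.61 ± 1.60 FPKM with the knockdown and 0.438 ± 0.142 FPKM in controls (SD, n = 4 each), a ratio of 5.95. The log2 fold change was 2.19 (standard error 0.379, limma adjusted p = 0.00973), and exact permutation of the FPKM values (two-sided) gave p = 0.0286, the smallest that 4 livers against 4 allow. Behind them stand 98 to 396 reads a liver with the knockdown and 18 to 38 in controls. The gene (ENSMUSG00000032691) lies on the plus strand of chromosome 11 of GRCm38 from 59541568 to 59566956. METTL3-HKD liver 1, the highest for Nlrp3, was also the highest for summed neutrophil markers. Without that liver the log2 fold change was 1.84, and with a pseudocount of 1 FPKM it was 1.23 (both past the threshold). The part of neutrophil RNA in the Nlrp3 difference was not tested.

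Pycard, the adaptor, did not follow the sensor past the threshold. It had 0.824, 0.399, 0.350 and 0.184 FPKM with the knockdown and 0.204, 0.261, 0.277 and 0.229 FPKM in controls. METTL3-HKD livers 1 to 3 lay above every METTL3-Flox liver and METTL3-HKD liver 4 below every one. The log2 fold change was 0.53, with a 95% interval from −0.25 to 1.30 (limma adjusted p = 0.322). The values rest on 11 to 63 reads a liver. Its FPKM was taken over 3800 bases of exons on chromosome 7 (127989708 to 127993867, minus strand), and 485 of them are shared with Gm45205 on the opposite strand, which was listed at 0.0485 FPKM at most.

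The inflammatory caspases Casp1 and Casp4 are neighbours on the plus strand of chromosome 9, at 5298517 to 5307265 and 5308828 to 5336783. Casp1 had 2.39, 2.28, 1.37 and 1.55 FPKM with the knockdown and 3.10, 1.94, 2.11 and 1.62 FPKM in controls. The groups overlapped throughout, with a log2 fold change of −0.20 and a 95% interval from −0.74 to 0.34 (limma adjusted p = 0.605). Casp4 had 1.81, 0.948, 0.970 and 1.15 FPKM against 1.06, 0.634, 0.638 and 0.603 FPKM in the same order. METTL3-Flox liver 1 reached into the METTL3-HKD range, and the other METTL3-Flox livers lay below it. The log2 fold change was 0.65 with a 95% interval from 0.09 to 1.20, which is not adjusted for the number of genes, and the limma adjusted p was 0.105 (exact permutation test, p = 0.0857). After scaling to reads on genes, the log2 fold change was 0.85 and passed (limma adjusted p = 0.0495). Reads numbered 37 to 72 per liver for Casp1 in METTL3-HKD mice and 36 to 135 for Casp4 over all livers.

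Gsdmd, the pore former that both inflammatory caspases cut, changed in the direction opposite to Nlrp3. Its level was 11.9, 12.0, 13.9 and 12.4 FPKM with the knockdown and 22.6, 17.2, 22.0 and 20.8 FPKM in controls. All METTL3-HKD livers lay below all METTL3-Flox livers, and METTL3-Flox liver 2 came closest. The mean was 12.5 ± 0.935 FPKM with the knockdown and 20.6 ± 2.44 FPKM in controls (SD, n = 4 each), a METTL3-HKD level 0.607 times that of METTL3-Flox. The log2 fold change was −0.71 (standard error 0.107, limma adjusted p = 0.00626; exact permutation test, p = 0.0286), from 525 to 795 reads per liver. The gene (ENSMUSG00000022575) lies on the plus strand of chromosome 15 from 75862327 to 75867408. Summed Kupffer cell markers and the hepatocyte factor Hnf4a were lower in the same livers, and the hepatocyte markers had a median log2 fold change of −0.42. The part of these cell types in the Gsdmd difference was not tested. After scaling to reads on genes, Gsdmd was still lower, with log2 fold change −0.50 (limma adjusted p = 0.0205).

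Casp8 rose by less than Nlrp3 but with little spread. It had 16.4, 14.9, 14.6 and 15.6 FPKM with the knockdown and 10.0, 12.2, 9.73 and 11.4 FPKM in controls. The lowest METTL3-HKD liver stood above the highest METTL3-Flox liver, and within METTL3-HKD mice the highest was 1.13 times the lowest. The mean was 15.4 ± 0.833 FPKM with the knockdown and 10.8 ± 1.19 FPKM in controls (SD, n = 4 each), a ratio of 1.42. The log2 fold change was 0.50 (standard error 0.0978, limma adjusted p = 0.0134; exact permutation test, p = 0.0286), from 411 to 957 reads per liver. Casp8 (ENSMUSG00000026029) lies on the plus strand of chromosome 1 from 58795374 to 58847503. Without the METTL3-HKD livers 1 and 3 that held muscle reads, which was tried once the data had been seen, its log2 fold change was 0.49 and the limma adjusted p was 0.0751 with 2 METTL3-HKD livers left, whereas Nlrp3 and Gsdmd still passed (2.04 and −0.75). Cholangiocyte and neutrophil markers were higher in the same livers as Casp8, and their part was not tested.

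The necroptosis genes Ripk1, Ripk3 and Mlkl did not pass. Ripk1, the kinase that joins receptor signalling to cell death, had 4.22, 3.90, 3.36 and 4.13 FPKM with the knockdown and 4.20, 4.33, 4.52 and 4.63 FPKM in controls. METTL3-HKD liver 1 exceeded METTL3-Flox liver 1 by a small margin, and the other METTL3-HKD livers were below all METTL3-Flox livers. Its log2 fold change was −0.18, with a 95% interval from −0.41 to 0.05 (limma adjusted p = 0.254; exact permutation test, p = 0.0571). Of its 8344 exon bases, 241 are shared with Serpinb6a on the opposite strand and 511 with Gm17084 on the same strand. Gm17084 was listed at 0 FPKM in every liver.
Ripk3, the kinase that activates MLKL, had 1.84, 1.20, 0.338 and 0.681 FPKM with the knockdown and 1.29, 0.567, 0.746 and 1.08 FPKM in controls. It varied most within METTL3-HKD mice, 5.45-fold, with both the highest and the lowest of all livers among them. The log2 fold change was −0.02, but its 95% interval ran from −1.03 to 0.98 (limma adjusted p = 0.978), so a change of about 2-fold either way lies inside or close to it.
Mlkl, the executor, had 6.13, 4.82, 3.80 and 4.32 FPKM with the knockdown and 4.98, 3.84, 3.91 and 3.59 FPKM in controls. The groups overlapped, and liver 1 was the highest in each group. Its log2 fold change was 0.21, with a 95% interval from −0.16 to 0.58 (limma adjusted p = 0.416).

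**Figure D2:**
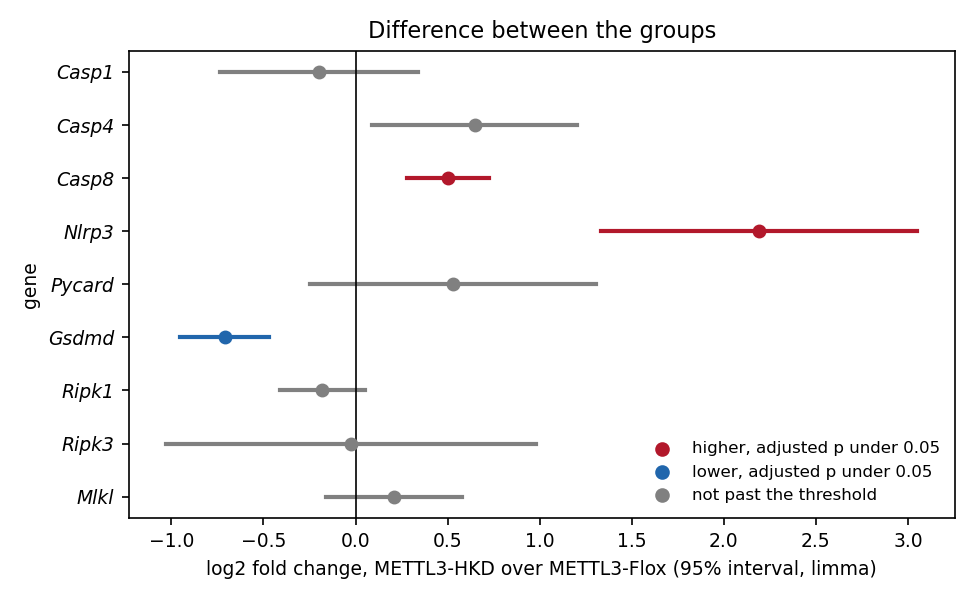
Log2 fold change of METTL3-HKD over METTL3-Flox livers for each gene (point) with its 95% interval from limma (line), coloured by whether the adjusted p was under 0.05. Nlrp3 (2.19) and Casp8 (0.50) lie to the right of 0, Gsdmd (−0.71) lies to the left, and the intervals of Casp1, Pycard, Ripk1, Ripk3 and Mlkl cross 0.

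Levels per length put Gsdmd first and Casp8 second in METTL3-Flox livers, at means of 20.6 and 10.8 FPKM, with no overlap between their ranges. In METTL3-HKD livers the order was turned, with Casp8 at 15.4 and Gsdmd at 12.5 FPKM, again without overlap. The ratio of Casp8 to Gsdmd within a liver, which does not depend on scaling between libraries, was 1.05 to 1.38 in METTL3-HKD livers and 0.441 to 0.712 in METTL3-Flox livers. This ratio was chosen after the levels were seen and is given as a description. Nlrp3 ranked just above Pycard, the lowest, among the genes in METTL3-Flox livers, with a range overlapping that of Casp4 but not that of Pycard below it. In METTL3-HKD livers it ranked between Ripk1 and Casp1, and from Mlkl downward each gene overlapped the next.

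The upstream sequences of the rising genes Nlrp3 and Casp8 and of Casp4, whose adjusted p lay above the threshold, are shown because a short motif occurs in the windows of Nlrp3 and Casp4 but not of Casp8. RefSeq sequences (GRCm38.p6) were given for 8 of the 9 genes, and Gsdmd was not among them. Each sequence is the 250 bases before the RefSeq start site, 5′ to 3′ on the plus strand, and capitals mark a match to an NF-κB motif (GGGNNTTCC on either strand). They are chr11:59541319-59541568 for Nlrp3, chr1:58802252-58802501 for Casp8 and chr9:5308599-5308848 for Casp4.
Nlrp3: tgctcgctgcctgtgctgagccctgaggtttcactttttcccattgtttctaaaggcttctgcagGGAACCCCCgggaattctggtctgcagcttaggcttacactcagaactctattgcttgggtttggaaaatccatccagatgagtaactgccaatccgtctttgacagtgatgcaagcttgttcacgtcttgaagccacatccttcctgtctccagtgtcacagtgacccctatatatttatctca
Casp8: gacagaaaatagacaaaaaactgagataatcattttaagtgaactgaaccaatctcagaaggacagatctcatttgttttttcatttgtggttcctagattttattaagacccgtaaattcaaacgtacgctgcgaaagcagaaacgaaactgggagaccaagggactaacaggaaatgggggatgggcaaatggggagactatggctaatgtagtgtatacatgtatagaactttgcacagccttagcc
Casp4: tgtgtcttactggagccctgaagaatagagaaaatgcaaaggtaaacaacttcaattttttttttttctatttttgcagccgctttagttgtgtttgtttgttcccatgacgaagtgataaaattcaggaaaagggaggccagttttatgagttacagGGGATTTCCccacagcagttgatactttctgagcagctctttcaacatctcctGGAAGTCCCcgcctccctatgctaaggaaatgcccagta
Casp4 held 2 matches, GGGATTTCC from −92 to −84 and GGAAGTCCC from −39 to −31 relative to the start site, and Nlrp3 held 1, GGAACCCCC from −185 to −177. At least 1 match occurred in 4.98% of the 32851 RefSeq upstream sequences of the same length. No match was found in the windows of Casp8, Casp1, Pycard, Ripk1, Ripk3 and Mlkl. Only this spelling of the NF-κB motif was searched, so sites spelled otherwise would be missed. None of the 8 windows held the motifs of AP-1 (TGANTCA, in 6.75% of all windows), ISRE (GAAA, any 2 bases, GAAA, in 2.98%) or GAS (TTCNNNGAA, 7.02%), searched on both strands. The RefSeq start of Casp8 lies 7128 bases inside the gene as listed in the deposited table, and Nlrp3, Casp4 and Ripk1 each have 2 RefSeq starts, of which the one nearest to the listed gene end was used. A match to letters is a description of the sequence and not of binding.

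Around the 9 genes, 73 further genes of the same pathways were listed by role, of which 71 were in the table and 64 were tested. Of these, 9 were higher and 4 were lower in METTL3-HKD livers, against 9.05% and 6.63% of all tested genes, with a median log2 fold change of −0.05. Il1b, the cytokine that caspase-1 matures, averaged 34.1 ± 25.3 against 1.83 ± 0.694 FPKM (SD, n = 4 each), log2 fold change 3.93 (standard error 0.504, limma adjusted p = 0.00381). Il1rn, the antagonist of its receptor, had 12.6 ± 6.44 against 1.22 ± 0.528 FPKM (SD, n = 4 each), log2 fold change 3.23 (limma adjusted p = 0.00272). Il18, the other cytokine matured by caspase-1, had log2 fold change −0.47 (limma adjusted p = 0.0846), and Il1a one of −0.03 (limma adjusted p = 0.955). Gsdma, another gasdermin, was at 0 reads in each control and at 22, 21, 1 and 12 reads in METTL3-HKD livers 1 to 4, at least 3.76-fold higher over a floor of 3 reads per library (limma adjusted p = 0.0488). Ninj1, which carries out the final rupture of the membrane and had the highest level of this role, was at 82.4 ± 2.55 against 106 ± 16.4 FPKM (SD, n = 4 each), with an adjusted p of 0.0713 from limma.

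Among the other inflammasome sensors, Mefv, which encodes pyrin, rose and Nlrp6 fell. Mefv had 2.75, 1.63, 0.971 and 1.46 FPKM with the knockdown against 0.325, 0.419, 0.324 and 0.229 FPKM in controls, log2 fold change 2.02 (limma adjusted p = 0.00532). Nlrp6, a sensor known from gut and liver, had 8.35, 9.90, 9.92 and 9.36 FPKM against 20.3, 18.7, 19.5 and 14.9 FPKM in the same order, log2 fold change −0.95 (limma adjusted p = 0.00348). The groups did not overlap for either sensor. Summed neutrophil markers were higher in the same livers as Il1b, Il1rn and Mefv. Kupffer cell markers and the hepatocyte factor Hnf4a were lower in the same livers as Nlrp6. The part of these cell types in the differences was not tested. The remaining 7 tested sensors, which include Aim2, Nlrc4, Naip2, Naip5 and Naip6, did not pass, and the Naip genes are close paralogs whose reads may be split uncertainly. Serpinb1a, an inhibitor of neutrophil proteases and of inflammatory caspases, had log2 fold change 1.90 (limma adjusted p = 0.0380), with METTL3-HKD liver 3 inside the METTL3-Flox range. Txnip, which binds NLRP3 under oxidative stress, had the highest level among the upstream regulators and did not pass (log2 fold change 0.64, limma adjusted p = 0.107), and 606 of its 3123 exon bases are shared with Gm15441 on the opposite strand.

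On the death receptor side, Tnf had 1.18, 0.825, 0.811 and 0.722 FPKM with the knockdown and 0, 0.151, 0.361 and 0.152 FPKM in controls, from 0 to 9 reads per METTL3-Flox liver. Its log2 fold change was 2.06 (limma adjusted p = 0.0158). Tnfrsf10b, the receptor of TRAIL, rose by 1.20 on the log2 scale (limma adjusted p = 0.0200), from 4 to 14 reads per METTL3-Flox liver. Tnfsf10, which encodes TRAIL, averaged 0.772 with the knockdown against 1.82 FPKM in controls. Its log2 fold change was −1.16 and did not pass (limma adjusted p = 0.0511). Tnfrsf1a, the main TNF receptor, had 71.6 ± 9.55 against 68.6 ± 4.67 FPKM (SD, n = 4 each) and a log2 fold change of 0.05. Cflar and Fadd, the partners of caspase-8, had log2 fold changes of 0.09 and −0.16 and did not pass. None of the 6 tested other caspases and none of the 5 apoptosome and mitochondrial factors passed with limma. Of them, 2 and 1 had an unadjusted p under 0.05 in limma, against 31.9% of all tested genes. Cycs, cytochrome c, had the highest level of its role and log2 fold change 0.18 (limma adjusted p = 0.239).

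Among necroptosis partners, Tlr4, the lipopolysaccharide receptor, rose by 1.21 on the log2 scale (limma adjusted p = 0.0294), and Ppm1b, a phosphatase that acts on RIPK3, fell by 0.30 (limma adjusted p = 0.0302). Zbp1, a sensor that activates RIPK3, did not pass (log2 fold change −1.08, limma adjusted p = 0.0747). It was named after its values were seen, as were Il18, Il1a, Tnfsf10, Cflar and Fadd. Among the ubiquitin brakes, Tnfaip3, which encodes the deubiquitinase A20, rose by 1.19 (limma adjusted p = 0.0286). Rbck1, a subunit of the linear ubiquitin ligase, fell by 0.29 (limma adjusted p = 0.0317). Birc5, survivin, was listed with this role, although it is known for its part in cell division and not as a ubiquitin brake. It fell by 1.39 (limma adjusted p = 0.0289) on at most 20 reads per liver. Otulin, which removes linear ubiquitin, had the highest level of this role and did not pass (log2 fold change −0.23, limma adjusted p = 0.156). Il1b, Il1rn, Mefv and Nlrp6 passed under all 17 alternatives, whereas each of the other 9 lost its call under 2 or more, with Ppm1b and Rbck1 at −0.09 and −0.08 after scaling to reads on genes.

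**Figure D3:**
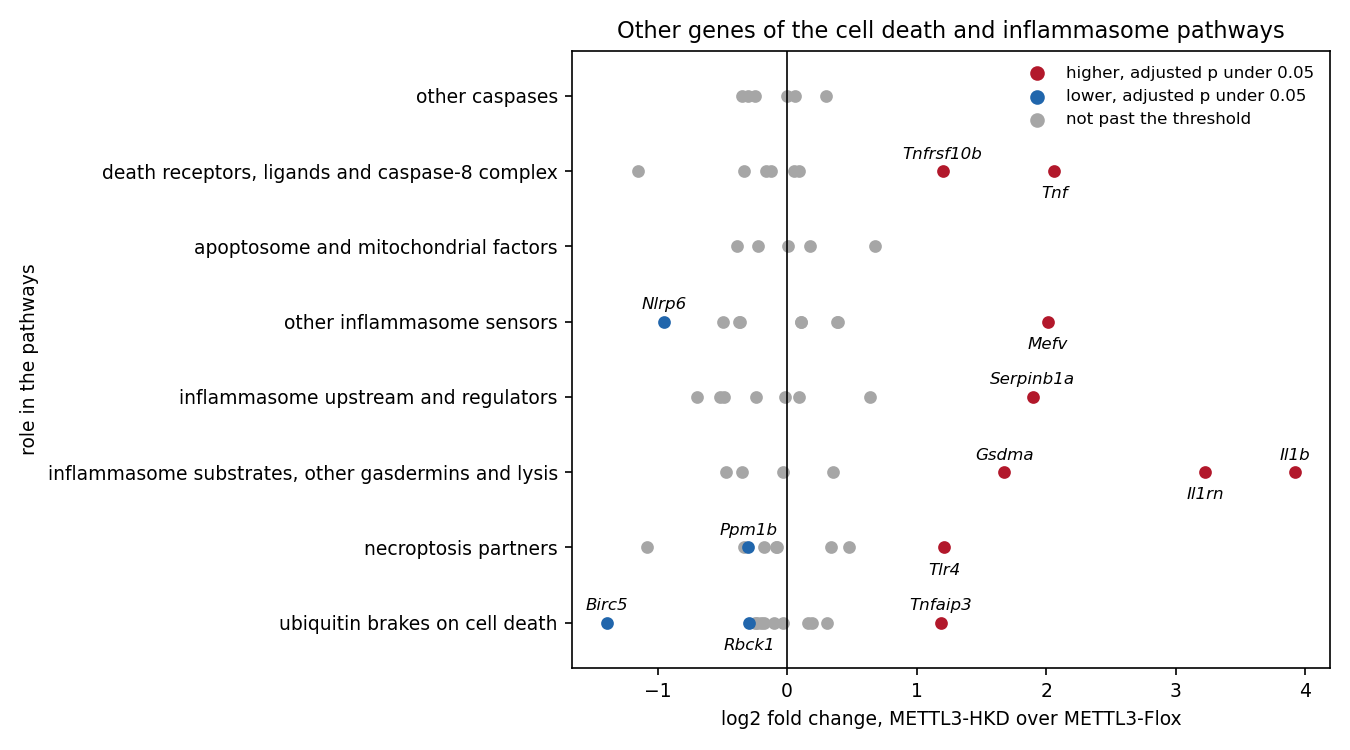
Log2 fold change of METTL3-HKD over METTL3-Flox livers for the 64 tested genes around the 9, in a row for each role, with 1 point per gene (red, higher; blue, lower; grey, not past an adjusted p of 0.05). The 9 higher genes lie between 1.19 (Tnfaip3) and 3.93 (Il1b), and no gene of the other caspases or of the apoptosome passed.

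Within the groups, the 9 genes varied together in part. After the group means were subtracted from log2(FPKM + 0.1), the Pearson correlation over the 8 livers was highest for Casp1 and Mlkl (r = 0.923), Casp4 and Mlkl (r = 0.889) and Ripk3 and Mlkl (r = 0.841). It was lowest for Casp8 and Gsdmd (r = −0.842). The 36 pairs had a median r of 0.371, and 28 were positive. The livers share their scaling and their cell composition across genes, so these values describe the libraries. Of 10693 other genes averaging 1 FPKM or more, the one most like Gsdmd in this measure was Agxt, an amino acid enzyme of hepatocytes (r = 0.996), the one most like Nlrp3 was Plp2 (r = 0.968) and the one most like Casp8 was Slc35a5 (r = 0.970). Each is the highest of many correlations over few livers, and 12 to 142 genes had r over 0.9 with each of the 9 (37 for Gsdmd). Mlkl was most like Brpf1 (r = 0.998), Casp1 most like Cmtm7 (r = 0.988) and Ripk1 most like Hlx (r = 0.976). Against 10694 such genes, Ripk3 was most like Mrto4-ps1 (r = 0.986), Casp4 most like Gja4 (r = 0.984) and Pycard most like Tln1 (r = 0.965). METTL3-HKD liver 1 held the highest level of Nlrp3, Casp4, Casp8, Pycard, Ripk3 and Mlkl among all livers, together with the largest sums of neutrophil and of monocyte and macrophage markers and the smallest sum of hepatocyte markers.

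**Figure D4:**
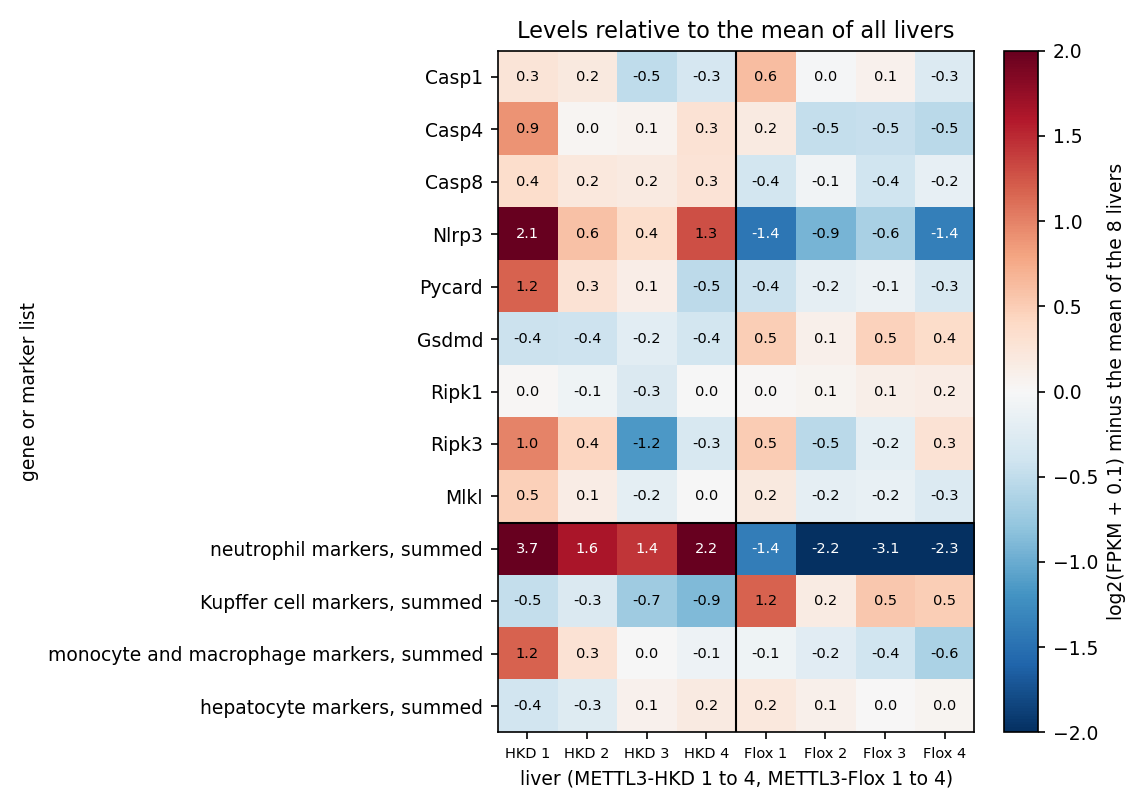
Levels of the 9 genes and summed levels of 4 marker lists in each liver (columns, METTL3-HKD 1 to 4 and METTL3-Flox 1 to 4), as log2(FPKM + 0.1) minus the mean of the 8 livers, with colour limited to −2 and 2. Nlrp3 and the neutrophil markers are above their mean in every METTL3-HKD liver and below it in every METTL3-Flox liver, and Gsdmd and the Kupffer cell markers show the opposite.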

How the data were processed

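Livers of 4 METTL3-HKD and 4 METTL3-Flox mice were grouped by their sample titles, and none of the 8 libraries was left out. The authors deposited 1 table of FPKM with the gene length used. GRCm38 and mm10 are named in the submitters' processing notes, and the aligner, counting tool and strand setting are not given in the sources used here. Of the 54532 genes, 54409 are in GENCODE M21, 98.26% of them with the same coordinates, and 27 symbols turned into dates were restored by identifier. FPKM times gene length times an effective library size gave whole reads (within 0.01) for 100% of non-zero values, and these sizes were not proportional to the read totals. The ratio of size to reads was 1.008 to 1.167 in METTL3-HKD livers and 0.840 to 1.008 in METTL3-Flox livers. The scaling of the FPKM thus differed between the groups, and its cause was not tested. Floors set in reads cover only counting error. Nothing in the labels or the paper pairs the livers by replicate number. The paper describes the METTL3-HKD and METTL3-Flox mice as littermates, but the litter of each sequenced mouse is not given.

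The groups were compared with limma 3.58.1 in R 4.3.3 (lmFit, then eBayes with trend, two-sided) on log2(FPKM + 0.1) for 16645 genes averaging 0.1 FPKM or more, with Benjamini-Hochberg adjustment over all of them. A fold change on this scale understates the change of low genes. Single genes were also tested by exact permutation of the 8 livers (70 arrangements) with scipy 1.17.1 in Python 3.11.15. In data simulated for this comparison (16286 genes), 98 of 100 genes changed 4-fold and 31 of 100 changed 2-fold were called, with 8 unchanged genes called. The simulation gave all genes the same dispersion and changed only genes above a minimum number of reads. It also changed a smaller share of genes than was called in the livers, so these rates do not carry over to the 9 genes. Alternatives were a minimum mean of 1 FPKM or none, a pseudocount of 1 FPKM, no trend, a replicate block, voom on the rebuilt reads, scaling to the reads on genes, median-of-ratios scaling, and leaving out each liver, with 1 more added after the data were seen. The 9 genes, the pathway and marker lists and the rules were chosen with earlier results of these data known. By rule, the text names the 9 genes, from each role of the pathway list the genes past the threshold and the one with the highest level, the markers, and for each of the 9 the gene most like it. One gene that this rule names is not reported here. Irgb10 and Dfna5 were not found under these symbols, and the latter is listed as Gsdme.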

Additional observations from a re-analysis of the deposited data

Results flagged for a closer look

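Of the 44 groups of 4 livers examined for the 9 genes and the 13 pathway genes past the threshold, 1 held a liver far from the others by Dixon's test at the 95% level. This was METTL3-Flox liver 1 for Casp4, at 1.06 FPKM against 0.603 to 0.638 FPKM in the other METTL3-Flox livers. Chance alone gives about 1 such group in 20. Without this liver the log2 fold change of Casp4 was 0.82 and the limma adjusted p was 0.0525, which did not pass either.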

How the results depend on the processing

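Of the 150 values of the 9 genes under the 17 alternatives, 139 kept their direction and their side of the threshold. Nlrp3 and Gsdmd passed under all 17. Leaving out each liver in turn gave log2 fold changes of 1.84 to 2.44 for Nlrp3, 0.45 to 0.56 for Casp8 (highest limma adjusted p = 0.0430), −0.80 to −0.66 for Gsdmd, −0.36 to 0.35 for Ripk3 and 0.45 to 0.82 for Casp4. Over all alternatives the adjusted p of limma ran from 0.00683 to 0.0361 for Nlrp3, from 0.0108 to 0.0751 for Casp8 and from 0.00512 to 0.0336 for Gsdmd. A pseudocount of 1 FPKM, which draws in the fold changes of low genes, gave 1.23 for Nlrp3, 0.99 for Mefv, 0.98 for Serpinb1a, 0.72 for Tlr4, 0.70 for Tnf, 0.33 for Gsdma and 0.32 for Tnfrsf10b, and Gsdma alone of these no longer passed. Casp4, Pycard and Ripk3 had no value at a minimum mean of 1 FPKM, since their means lie below it. Scaling to the reads on genes moved the median over all genes, on the log2 scale, from −0.00 to 0.19. It turned Casp1 to 0.0087, Ripk1 to 0.031 and Ripk3 to 0.17, none past the threshold, and brought Casp4 past it at 0.85. Casp8 was then at 0.72 and Nlrp3 at 2.38, both still past the threshold. Ripk3 was also turned by a pseudocount of 1 FPKM (0.028) and by leaving out the METTL3-HKD livers with muscle reads (0.040). That last alternative left Casp8 at 0.49 and not past the threshold, so 1 of the 9 genes was higher.

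Counts over all genes moved more. With 1506 higher and 1104 lower genes, scaling to reads on genes gave 2304 and 373 (86.1% of calls higher against 57.7%), no minimum gave 682 lower, the livers with muscle reads left out gave 684 and 247, and leaving out each liver gave 737 to 1653 and 347 to 1123. At a log2 fold change of 1, the 782 upregulated genes became 450 with a minimum of 1 FPKM, 317 with a pseudocount of 1 FPKM and 487 to 957 with a liver left out. The 253 downregulated genes became 88 with that pseudocount, 163 with no minimum, 132 with scaling to reads, 90 without the livers with muscle reads and 94 to 336 with a liver left out. Of the pathway list, 9 higher and 4 lower genes became 5 and 1 without the livers with muscle reads and 3 to 9 and 1 to 6 with a liver left out, and the lower count was 2 with no trend and with scaling to reads.

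Same-numbered livers did not deviate together, with correlations from −0.084 to 0.071, so the numbers were not taken as pairs. With a replicate block, 971 genes were higher and 645 lower, and 2 pathway genes were lower, while Nlrp3, Casp8 and Gsdmd still passed (adjusted p = 0.0361, 0.0417 and 0.0203 from limma). The causes of these shifts were not tested. Of the 9 genes, Pycard, Ripk3 and Nlrp3 had the fewest reads in a liver, at 11, 14 and 18, and how far depth limits their estimates was not tested.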
